A study of Mus musculus with 15 samples.

Results

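Vegfa and 8 genes of the hypoxia response were followed in RAW264.7 cells, an established mouse macrophage-like line, given the LCCL peptide. The 9 genes, Hif1a, Egln1, Egln3, Vegfa, Adm, Bnip3, P4ha1, Ndrg1 and Ankrd37, were chosen by name, with earlier results of these data known. They were taken as rows of a table of read counts for 25639 gene symbols. All 9 had a row and passed the filter on low counts that left 12401 genes to test. Adm reached the count minimum of that filter only in libraries from 24 h (1 at 1 µg and 2 at 10 µg), so its tests are given as a description and counts of genes are also given without it. The 15 RNA sequencing libraries, all of WT genotype, form 5 groups of 3: untreated cells, cells given LCCL for 6 h at 1 µg or 10 µg, and cells given it for 24 h at either dose. No volume stands beside the doses, no group received vehicle alone, and when the untreated cells were harvested is not stated. Time in culture and handling therefore cannot be told apart from the peptide in the comparisons with untreated cells. The same holds for time in culture in the comparisons of 24 h with 6 h, since no untreated group is known to match either time. All libraries carry 1 batch label, and nothing says that the 3 libraries of a group came from separate cultures, so the p-values measure the spread between libraries, and that spread may be only technical.

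HIF-1 is a transcription factor made of an oxygen-regulated alpha subunit, encoded by Hif1a, and a stable partner, encoded by Arnt. When oxygen is plentiful, prolyl hydroxylases of the Egln family mark the alpha subunit for destruction through the von Hippel-Lindau ubiquitin ligase, so its activity is set largely at the protein level. When hydroxylation slows, HIF-1 raises genes for blood vessel growth, glycolysis, mitophagy and collagen modification, and in macrophages it is also switched on by inflammatory signals at normal oxygen. Several of these targets answer to other pathways as well, and the mRNA counts used here measure neither HIF protein nor oxygen.

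Library totals ran from 19085148 to 22434642 counts. The 8 macrophage markers examined were all expressed. Their summed levels lay between 12971 and 13458 CPM (counts scaled to a common library size) in untreated libraries. At 24 h the sums lay between 12339 and 14480 CPM with 1 µg and between 10202 and 11238 CPM with 10 µg. Lyz2 was the largest part, at 7099 to 11045 CPM over all libraries, so the sums say little about the other markers. Csf1r ranged from 785 to 1560 CPM and Fcgr1 from 8.06 to 33.6 CPM. Markers of endothelium, fibroblasts, epithelium, T cells, B cells and neutrophils summed to at most 1.17 CPM in any library, and Col1a1, Epcam, Cd3e and Ly6g had no count. Replicate 1 of the group given 1 µg for 24 h differed from the other 2 libraries of its group by a chi-square per degree of freedom of 13.3 and 14.98 over genes, against 5.61 between those 2 and 2.51 to 7.01 within the other groups. It held the lowest level of its group for 8 of the 9 genes (all but Hif1a), and results that rest on it are given with and without it. Because these are bulk samples, fewer cells expressing a gene and less of its RNA per cell cannot be told apart.

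At 24 h Vegfa, Ndrg1, Bnip3, Ankrd37 and Egln3 rose at both doses, whereas Hif1a and Egln1 did not pass the test and P4ha1 fell slightly at 10 µg. Log2 fold changes against untreated cells at 24 h reached 2.47 ± 0.07 (SE) for Vegfa and 3.14 ± 0.17 for Ndrg1, both at 10 µg. At 6 h the changes were small: with 10 µg, Vegfa, Hif1a and P4ha1 rose, none of them by more than 0.44 on the log2 scale. Tests are edgeR quasi-likelihood tests over all 12401 genes with Benjamini-Hochberg adjustment, and a gene is called at an adjusted p under 0.05.

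**Figure D1:**
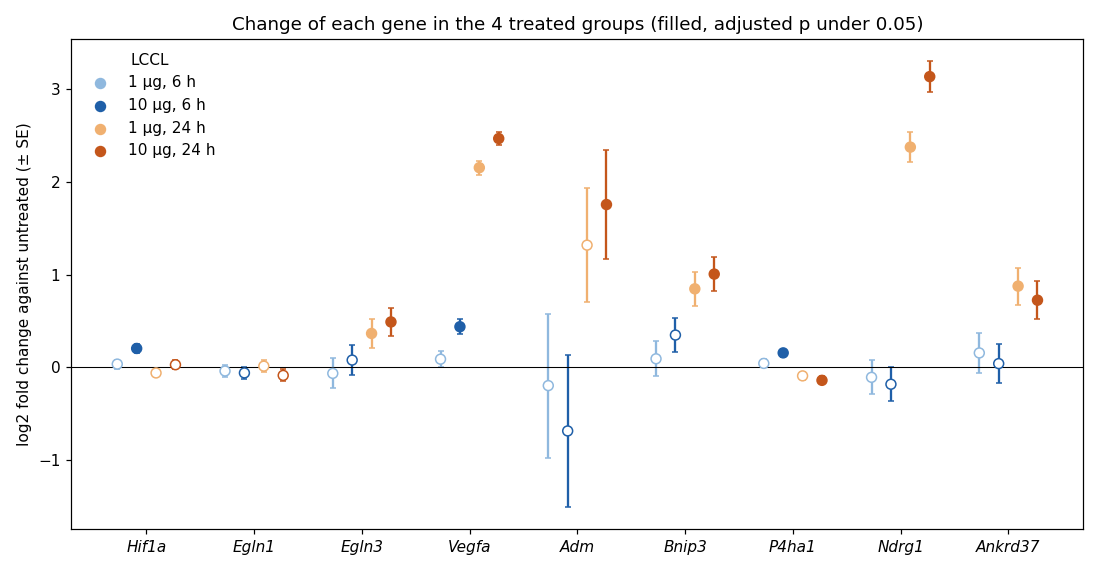
Log2 fold change against untreated cells for each of the 9 genes in the 4 treated groups, with bars for the SE of the edgeR fit and filled points for genes called at an adjusted p under 0.05. Ndrg1 and Vegfa lie above 2 at 24 h with both doses, while Hif1a, Egln1 and P4ha1 stay within 0.21 of 0 in all 4 groups.

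With 1 µg for 6 h, 0 of the 9 genes were called by edgeR, DESeq2 or limma-voom, and none had an unadjusted p under 0.05, in a comparison where edgeR called 0% of all genes tested and 337 genes had an unadjusted p under 0.05. With 10 µg for 6 h, 3 of 9 were called, all higher, against 5.95% of all genes in either direction (4.09% higher and 1.86% lower). When 1 library of the groups compared was left out, 1 to 3 were called. Only the Vegfa call was kept in every such fit. With 1 µg for 24 h, 5 of 9 were called, all higher, against 61.8% of all genes in either direction (30.8% higher and 31% lower). With 10 µg for 24 h, 6 were higher and 1 lower (5 and 1 of 8 without Adm), against 70.3% in either direction, 35.4% higher and 34.9% lower. The share of the 9 genes called in either direction at 24 h was thus near that of all genes. Libraries that do not overlap between 2 groups were also common. Against untreated cells this held for 27.3% of all genes with 10 µg for 6 h. At 24 h it held for 64.7% with 1 µg and 72.2% with 10 µg, and for 41.2% between the doses. The median log2 fold change of the 9 was 0.85 at 1 µg and 0.72 at 10 µg (0.61 at both doses without Adm), where the median of all genes was 0.01 at both doses. Because the 9 were chosen with earlier results of these data known, these counts and the gap between these medians are a description and no test. Leaving out replicate 1 of the group given 1 µg for 24 h made the count there 6, by adding Adm.

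Promoter sequences were set beside these values because the genes that moved together are known HIF targets. RefSeq promoter windows (build GRCm38.p6) were found for 8 of the 9 genes, all but Ndrg1. The 250 bases before each listed start site were searched on both strands for the core of the hypoxia response element, ACGTG or GCGTG. At least 1 core was found in the first listed window of 7 of those 8 genes, and in 38.6% of all 32841 windows of the same length (ACGTG in 16.6%, GCGTG in 28.2%). These genes were chosen by name as genes of the hypoxia response, so that gap is a description and no result on the peptide. The 7 include Hif1a, Egln1 and P4ha1, which did not rise at 24 h. The windows of the 8 genes had GC contents of 50.8% to 86%, against a median of 52.4% over all windows, and the part of GC content in the number of cores was not tested. A core within CACGTG is counted on each strand, since that sequence reads the same on both. Shown are windows of 3 genes that rose at 24 h (Vegfa, Bnip3 and Ankrd37) and of P4ha1, which did not, each 5′ to 3′ on the gene's strand with cores in capitals. They lie at chr17:46032378-46032627 (minus strand, Vegfa), chr7:138909507-138909756 (minus strand, Bnip3), chr8:45999851-46000100 (minus strand, Ankrd37) and chr10:59323046-59323295 (plus strand, P4ha1).
Vegfa: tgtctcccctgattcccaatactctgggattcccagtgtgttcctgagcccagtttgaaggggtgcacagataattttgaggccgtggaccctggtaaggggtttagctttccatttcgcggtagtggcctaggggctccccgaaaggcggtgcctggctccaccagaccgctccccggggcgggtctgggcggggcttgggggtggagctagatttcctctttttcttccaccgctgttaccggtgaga
Bnip3: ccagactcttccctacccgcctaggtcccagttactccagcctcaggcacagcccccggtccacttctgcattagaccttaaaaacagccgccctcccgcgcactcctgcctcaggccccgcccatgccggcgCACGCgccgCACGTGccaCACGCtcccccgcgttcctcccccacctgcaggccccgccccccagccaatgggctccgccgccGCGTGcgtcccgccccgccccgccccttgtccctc
Ankrd37: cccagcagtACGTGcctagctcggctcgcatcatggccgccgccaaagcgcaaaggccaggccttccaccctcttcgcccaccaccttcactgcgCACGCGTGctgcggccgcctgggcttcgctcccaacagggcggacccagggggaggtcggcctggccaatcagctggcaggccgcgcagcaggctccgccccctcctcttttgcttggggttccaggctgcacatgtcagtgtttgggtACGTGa
P4ha1: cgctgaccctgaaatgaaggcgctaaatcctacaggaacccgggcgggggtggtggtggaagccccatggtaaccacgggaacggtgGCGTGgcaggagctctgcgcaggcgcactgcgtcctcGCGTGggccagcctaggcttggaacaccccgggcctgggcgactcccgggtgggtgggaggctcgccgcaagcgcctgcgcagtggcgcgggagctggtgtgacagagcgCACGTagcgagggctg

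The first Vegfa window held 0 cores, although Vegfa had the second largest fold change of the 9 genes at 24 h with 10 µg. That says only that these letters are not in this window. A second listed Vegfa start lies downstream of the first on the gene's strand, and its window, at chr17:46025164-46025413, had 2 cores. These may lie in sequence transcribed from the first start, which was not checked, so they say nothing about elements before that start. The Bnip3 window held 5 matches in 4 places and the Ankrd37 window 4 matches in 3 places, while P4ha1, with 3, rose at 6 h and fell at 24 h with 10 µg. Hif1a had 3 matches in 2 places, Egln1 and Adm had 2 each and Egln3 had 1. Among the 8 genes with a window, and in the first windows only, the number of cores did not visibly follow the size of the change: Egln1, with 2 cores, was called in no comparison. Ndrg1, with the largest change, had no window, and the relation was not tested.

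**Figure D2:**
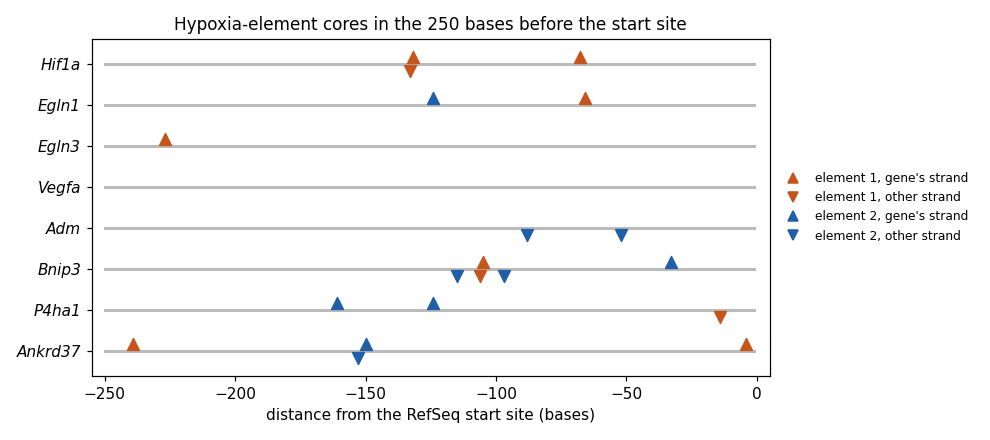
Positions of hypoxia response element cores in the 250 bases before the RefSeq start site of 8 genes, in bases from the start site on the x axis; element 1 is ACGTG and element 2 is GCGTG, on either strand. The Bnip3 window holds 5 matches and the first Vegfa window none.

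Among the genes of the oxygen sensor, Hif1a, the alpha subunit of HIF-1, stayed near its untreated level. Its levels were 160.2, 164 and 160.3 CPM in untreated libraries, 163, 162 and 171 CPM with 1 µg for 6 h and 196, 178 and 183 CPM with 10 µg for 6 h. After 24 h the levels were 159, 161 and 144 CPM with 1 µg and 164, 165 and 165 CPM with 10 µg. All 3 libraries given 10 µg for 6 h lay above every other library, and the 4 other groups lay within 144 to 171 CPM. The rise at 10 µg for 6 h was 0.20 ± 0.05 on the log2 scale (edgeR adjusted p = 0.0114). That call was lost without untreated replicate 1, untreated replicate 3 or replicate 1 of the treated group (adjusted p up to 0.0913). At 24 h the difference from untreated cells was -0.06 ± 0.05 with 1 µg and 0.03 ± 0.05 with 10 µg (95% interval of the latter -0.07 to 0.13), neither called. From 6 h to 24 h at 10 µg Hif1a fell by 0.18 ± 0.05 on the log2 scale (edgeR adjusted p = 0.00250).

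Egln1 encodes PHD2, the main prolyl hydroxylase acting on HIF-1 alpha. Its levels lay between 30.02 and 35.01 CPM in all 15 libraries, with group means of 32.7, 31.8, 31.4, 33.0 and 30.8 CPM for untreated cells, the 6 h groups with 1 µg and 10 µg and the 24 h groups in the same order of dose. All 3 libraries given 10 µg for 24 h lay just below the untreated range, the other treated groups overlapped it, and Egln1 was called in none of the 9 comparisons. At 10 µg for 24 h its log2 fold change was -0.09 ± 0.06 (95% interval -0.22 to 0.05).

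Egln3 encodes PHD3, a prolyl hydroxylase that is itself a HIF target and so part of a feedback loop. Its levels were 5.17, 4.74 and 6.01 CPM in untreated libraries, 4.21, 5.05 and 5.92 CPM with 1 µg for 6 h, and 4.54, 6.79 and 5.50 CPM with 10 µg for 6 h. After 24 h they were 6.53, 7.30 and 6.65 CPM with 1 µg and 7.42, 8.42 and 6.50 CPM with 10 µg. Both 24 h groups lay above all untreated libraries, while 1 library given 10 µg for 6 h reached the 24 h range. The log2 fold change was 0.37 ± 0.15 with 1 µg (edgeR adjusted p = 0.0425) and 0.49 ± 0.15 with 10 µg (adjusted p = 0.00657). The 1 µg call was lost in DESeq2 (adjusted p = 0.0589) and when untreated replicate 1, untreated replicate 2, or replicate 2 or 3 of the treated group was left out (up to 0.154).

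**Figure D3:**
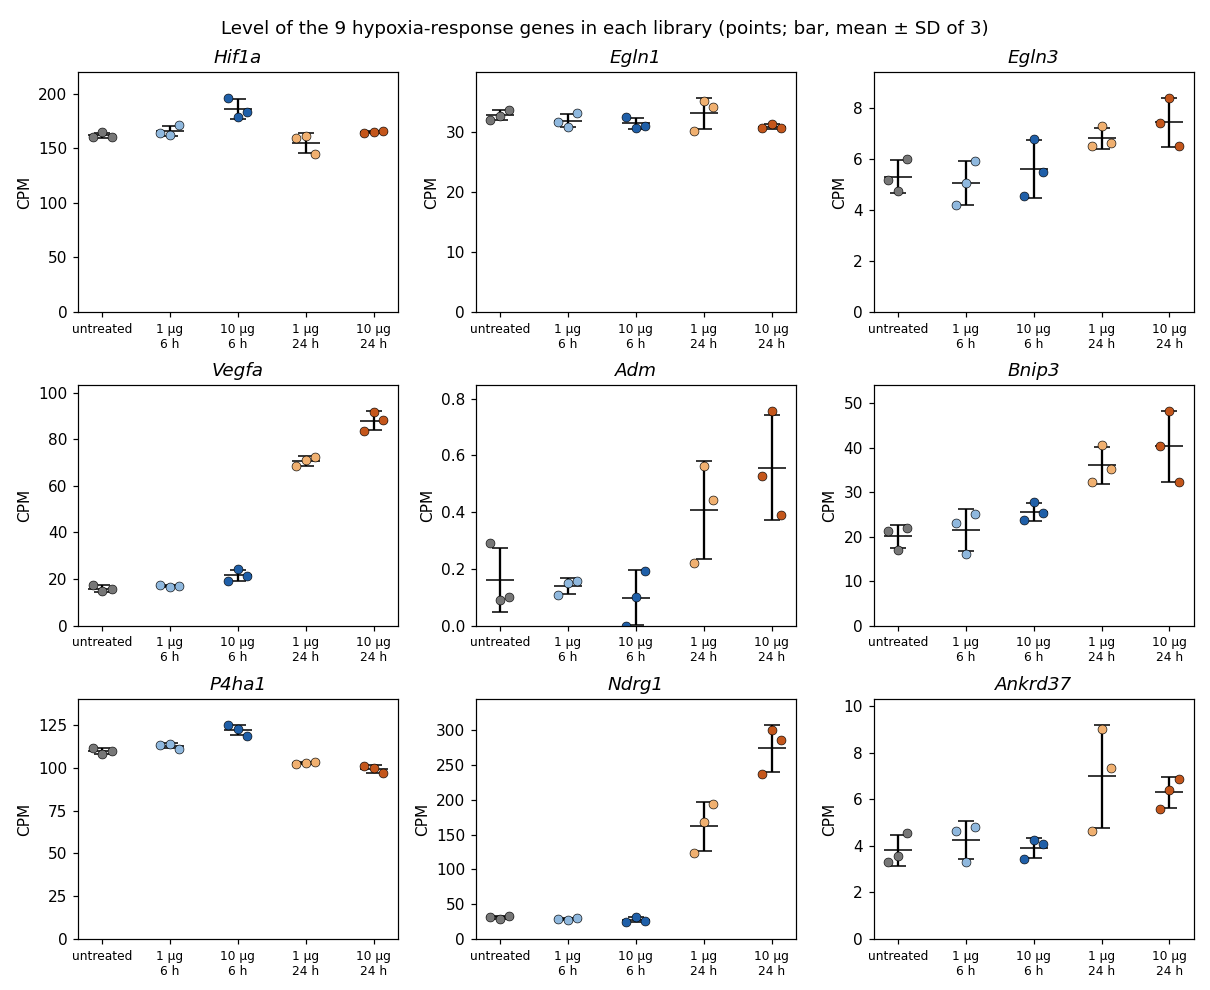
Level of each of the 9 genes in CPM (y axis, starting at 0 and scaled per gene) in the 5 groups; points are libraries, horizontal lines the group mean and error bars the SD (n = 3). Vegfa and Ndrg1 show no overlap between the 24 h libraries and the 9 others, and Ndrg1 shows none between the 2 doses at 24 h.

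Of the secreted factors, Vegfa encodes vascular endothelial growth factor A, a main driver of blood vessel growth that macrophages release into poorly supplied tissue. Its levels were 17.4, 14.6 and 15.6 CPM in untreated libraries, 17.2, 16.5 and 16.9 CPM with 1 µg for 6 h and 19.2, 24.2 and 21.1 CPM with 10 µg for 6 h. At 24 h they rose to 68.5, 71.1 and 72.6 CPM with 1 µg and 83.6, 91.9 and 88.5 CPM with 10 µg. The order of the levels was thus untreated, then the lower and the higher dose at 6 h, then the lower and the higher dose at 24 h, and only untreated cells and 1 µg for 6 h overlap.

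Against untreated cells the log2 fold change of Vegfa was 0.09 ± 0.08 with 1 µg for 6 h (not called) and 0.44 ± 0.08 with 10 µg for 6 h (edgeR adjusted p = 0.00108). At 24 h it was 2.16 ± 0.07 with 1 µg, a 4.46-fold difference (adjusted p = 1.06e-17), and 2.47 ± 0.07 with 10 µg, a 5.54-fold difference (adjusted p = 3.61e-19). These calls held in all 13 alternatives run for each. Ordered by the size of the rise, Vegfa stood at place 132 of the 12401 genes at 1 µg and place 178 at 10 µg.

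Vegfa was also higher with 10 µg than with 1 µg at both times. The log2 difference was 0.31 ± 0.06 at 24 h (edgeR adjusted p = 0.000372) and 0.35 ± 0.08 at 6 h (adjusted p = 0.0171). The 6 h call was lost in 5 of 6 fits that left out 1 library (adjusted p 0.0592 to 0.179); only without replicate 1 of the group given 10 µg was it kept. From 6 h to 24 h Vegfa rose by 2.07 ± 0.07 with 1 µg and by 2.03 ± 0.07 with 10 µg. The difference between those rises was -0.04 ± 0.10 (95% interval -0.25 to 0.18), so no dependence of the time course on dose was detected. In the dose comparisons, 1 of 9 genes was higher at 6 h (Vegfa), where 2.35% of all genes were called (1.85% higher and 0.492% lower). At 24 h 2 of 9 were higher (Vegfa and Ndrg1), where 35.3% were called (16% higher and 19.3% lower).

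Adm encodes adrenomedullin, a vasodilator peptide and a HIF target, and was close to the limit of detection. Its counts were 6, 2 and 2 in untreated libraries, 2, 3 and 3 with 1 µg for 6 h, 0, 2 and 4 with 10 µg for 6 h, 5, 13 and 9 with 1 µg for 24 h and 11, 15 and 8 with 10 µg for 24 h. The 24 h libraries at 10 µg lay above all untreated and 6 h libraries, and those at 1 µg overlapped the untreated ones. Summed over the 3 libraries and scaled to depth, Adm was 2.55 times the untreated level with 1 µg for 24 h (exact 95% interval 1.20 to 5.91, counting error only) and 3.47 times with 10 µg (1.68 to 7.87). In edgeR the log2 fold change at 10 µg for 24 h was 1.76 ± 0.59 (adjusted p = 0.0103), which was lost without untreated replicate 2 or replicate 2 of the treated group (adjusted p up to 0.0595).

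Bnip3, a mitochondrial outer membrane protein that starts mitophagy, rose at 24 h. Its levels were 21.2, 17.1 and 21.95 CPM in untreated libraries, 23.1, 16.1 and 25.0 CPM with 1 µg for 6 h and 23.7, 27.7 and 25.3 CPM with 10 µg for 6 h. Those at 24 h were 32.4, 40.7 and 35.1 CPM with 1 µg and 40.4, 48.2 and 32.4 CPM with 10 µg. The 24 h libraries lay above all 9 others, and the doses overlapped at 24 h. The log2 fold change was 0.85 ± 0.18 with 1 µg (edgeR adjusted p = 0.00157) and 1.01 ± 0.18 with 10 µg (adjusted p = 0.000341), and 10 µg differed from 1 µg by 0.16 ± 0.17 (95% interval -0.22 to 0.54). At 6 h with 10 µg no library overlapped the untreated range, but the change of 0.35 ± 0.19 was not called (adjusted p = 0.366). It was called when only those groups were fitted (adjusted p = 0.00931). In the annotation (GENCODE M21, GRCm38) 22.3% of Bnip3 exon bases overlap the antisense gene Gm45507, and the strand setting of the counting is not given in the sources used here.

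P4ha1 encodes the catalytic alpha subunit of collagen prolyl 4-hydroxylase, and it moved little and in different directions at the 2 times. Its levels were 111, 108 and 109.6 CPM in untreated libraries, 114, 114 and 111 CPM with 1 µg for 6 h and 125, 123 and 119 CPM with 10 µg for 6 h. Those at 24 h were 102, 103 and 104 CPM with 1 µg and 101, 100.2 and 96.8 CPM with 10 µg. The libraries given 10 µg for 6 h were the highest of the 15 and all 6 libraries at 24 h were below every other library. The rise at 6 h with 10 µg was 0.16 ± 0.04 on the log2 scale (edgeR adjusted p = 0.0289). It was lost without the filter on low counts (adjusted p = 0.0612) and in 5 of 6 fits that left out 1 library (up to 0.12), all but that without replicate 3 of the treated group. At 24 h P4ha1 fell by 0.14 ± 0.04 with 10 µg (adjusted p = 0.00566), and its log2 fold change with 1 µg was -0.09 ± 0.04 (adjusted p = 0.0650). Between 6 h and 24 h it fell by 0.13 ± 0.04 at 1 µg (adjusted p = 0.00920) and by 0.30 ± 0.04 at 10 µg (adjusted p = 1.21e-06).

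Ndrg1, a stress-responsive gene induced by hypoxia and by differentiation, had the largest fold change of the 9 genes. Its levels were 31.3, 29.2 and 32.9 CPM in untreated libraries, 28.8, 28.0 and 29.8 CPM with 1 µg for 6 h and 24.4, 31.3 and 26.6 CPM with 10 µg for 6 h. At 24 h they were 123, 168 and 194 CPM with 1 µg and 236, 300.5 and 286 CPM with 10 µg. Both 6 h groups overlapped the untreated range, and at 24 h all libraries of the higher dose lay above all of the lower dose.

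The log2 fold change of Ndrg1 against untreated cells was 2.38 ± 0.17 with 1 µg for 24 h (edgeR adjusted p = 2.26e-07) and 3.14 ± 0.17 with 10 µg, an 8.81-fold difference (adjusted p = 1.04e-08) that stood at place 79 of all genes by the size of the rise. At 6 h it was -0.11 ± 0.18 with 1 µg and -0.18 ± 0.18 with 10 µg, neither called. Without replicate 1 of the group given 1 µg for 24 h, its lowest library, the 1 µg value was 2.54. The difference between the doses at 24 h was 0.76 ± 0.15 (adjusted p = 0.00184), or 0.60 without that library (adjusted p = 0.000802).

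From 6 h to 24 h Ndrg1 rose by 2.49 ± 0.17 with 1 µg and by 3.32 ± 0.17 with 10 µg. It was the only one of the 9 genes whose rise with time differed between the doses in edgeR, by 0.84 ± 0.24 (adjusted p = 0.0319), against 18.6% of all genes called in that test and 7.58% called in the same direction. The call was lost when only the 4 treated groups were fitted (adjusted p = 0.0569) and in 8 of 12 fits that left out 1 library (up to 0.0792). In the comparisons of 24 h with 6 h, 6 of the 9 genes were higher and 1 lower at 1 µg (5 and 1 of 8 without Adm, whose call there was lost in 10 of 12 alternatives), where 30.3% of all genes were higher and 30.5% lower (60.7% called). At 10 µg 6 were higher and 2 lower (5 and 2 without Adm), where 34% of all genes were higher and 35.2% lower (69.2% called).

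Ankrd37 encodes a small ankyrin-repeat protein and is a known HIF-1 target. Its levels were 3.32, 3.56 and 4.57 CPM in untreated libraries, 4.64, 3.30 and 4.81 CPM with 1 µg for 6 h and 3.43, 4.24 and 4.10 CPM with 10 µg for 6 h. At 24 h they were 4.64, 9.02 and 7.33 CPM with 1 µg and 5.60, 6.40 and 6.89 CPM with 10 µg. The 24 h libraries at 10 µg lay above all untreated and 6 h libraries, whereas replicate 1 of the 1 µg group lay just above the untreated range and within that of 1 µg for 6 h. The log2 fold change was 0.88 ± 0.20 with 1 µg (edgeR adjusted p = 0.000675), or 1.10 without that library, and 0.72 ± 0.20 with 10 µg (adjusted p = 0.00322). The difference between the doses at 24 h was -0.15 ± 0.19 (95% interval -0.55 to 0.24). Without replicate 1 of the 1 µg group it was -0.38 ± 0.16 (edgeR adjusted p = 0.0775), and it was called in neither fit. In the annotation 22.7% of Ankrd37 exon bases overlap Lrp2bp on the other strand.

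Levels can be compared between genes only per length of exon. The length used was that of all annotated exons of a gene together, and the annotation used for the counting is not given. In untreated cells Hif1a and P4ha1 were highest, at 27.4 and 26.7 CPM per kb of exon, with ranges over libraries that adjoined without overlap. A gap this small could come from the lengths used, so it sets no order between them. Egln1 and Bnip3 followed at 9.11 and 8.87 CPM per kb, with overlapping ranges. Ndrg1, Vegfa, Ankrd37 and Egln3 had 4.72, 3.71, 2.48 and 1.99 CPM per kb, and of these only Ankrd37 and Egln3 overlapped. Adm was lowest at 0.0995 CPM per kb. With 10 µg for 24 h the order began with Ndrg1 at 41.6, Hif1a at 27.9, P4ha1 at 24.2, Vegfa at 20.5 and Bnip3 at 17.8 CPM per kb, so that Ndrg1 had passed both Hif1a and P4ha1, with no overlap between its libraries and theirs.

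The spread over the 15 libraries was shared most closely by Vegfa and Ndrg1, with a Pearson correlation of log2 CPM of 0.978. Vegfa correlated with Bnip3 at 0.903, with Ankrd37 at 0.808, with Egln3 at 0.803, with P4ha1 at -0.776 and with Hif1a at -0.371. These correlations describe 15 libraries that share the step from 6 h to 24 h, and they carry no test. Among all genes tested the 4 with the pattern most like Vegfa by the same measure were Pde4dip (0.995), Abcg1 (0.995), Dennd2d (0.994) and Hcar2 (0.994). Abcg1, a cholesterol efflux transporter, went from 46.8 CPM in untreated cells to 212 CPM with 1 µg and 246 CPM with 10 µg at 24 h. The gene most like Ndrg1 was Bbc3 (0.996), which encodes the pro-apoptotic protein PUMA and went from 20.99 CPM in untreated cells to 75.2 and 104 CPM at 24 h with 1 µg and 10 µg. For Bnip3 it was Mgarp (0.939), for Ankrd37 Odad1 (0.944), for Egln3 Dedd (0.929), for P4ha1 Cpd (0.965), for Hif1a Sc5d (0.926), for Adm Ech1 (0.964) and for Egln1 Mob1a (0.825). Mgarp averaged 0.31 CPM in untreated cells and 0.40 and 0.49 CPM at 6 h with 1 µg and 10 µg, near the filter minimum of 0.486 CPM. At 24 h it averaged 1.55 and 1.61 CPM. It may therefore have passed the filter only through the 24 h groups, and its likeness to Bnip3 is a description.

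The other genes of the pathway, in 7 lists with 71 testable genes, lay on both sides of their untreated levels at 24 h. Of the 71, 25 were higher and 27 lower with 1 µg, where 30.8% of all genes were higher and 31% lower. With 10 µg 27 were higher and 32 lower, where the shares of all genes were 35.4% and 34.9%. The counts were thus near those of all genes, with median log2 fold changes of -0.03 and -0.06. These 2 comparisons share the same 3 untreated libraries, and their values are given side by side. With 1 µg for 6 h 0 of 71 were called by edgeR (0% of all genes). With 10 µg for 6 h 9 were higher and 1 lower, where 4.09% of all genes were higher and 1.86% lower. Of those calls, 2 in the vascular list were lost whenever 1 library of the groups compared was left out, and 5 in the list of other HIF targets became 2 or 3.

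Of 19 glycolytic targets tested, 6 were higher and 10 lower with 1 µg for 24 h and 5 higher and 12 lower with 10 µg, where 31% and 34.9% of all genes were lower. The median log2 fold changes of this list were -0.16 and -0.20. Ldha, lactate dehydrogenase A and a standard HIF target, fell, with log2 fold changes of -0.76 ± 0.05 with 1 µg and -0.90 ± 0.05 with 10 µg. Hk1, a hexokinase, fell likewise (-0.81 ± 0.06 and -0.77 ± 0.06), and Pkm, pyruvate kinase, fell by 0.72 ± 0.05 with 10 µg, although 15.3% of its exon bases are shared with Gm49759 on the same strand. The aldolase gene Aldoc rose by 0.72 ± 0.05 and 0.78 ± 0.05. At 6 h with 10 µg the glucose transporter gene Slc2a1 rose by 0.44 ± 0.07 and Pfkfb3, which makes an activator of glycolysis, by 0.30 ± 0.07.

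**Figure D4:**
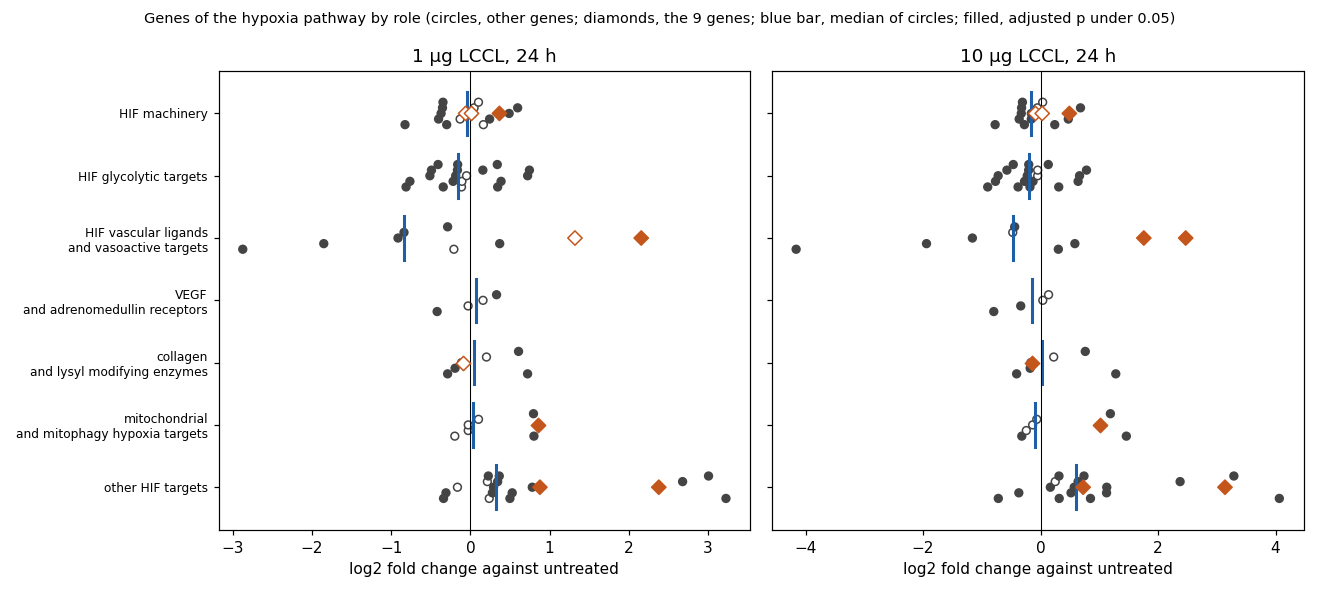
Log2 fold change against untreated cells at 24 h for the other genes of the 7 pathway lists, 1 circle per gene, by list, with 1 µg in the left panel and 10 µg in the right (the x axes differ in range); diamonds are those of the 9 genes that belong to the list, filled symbols were called, and a blue bar marks the median of the circles. The glycolytic list has medians of -0.16 and -0.20 and the list of other HIF targets 0.32 and 0.61.

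Of 7 other vascular and iron-related targets tested, 1 was higher and 5 were lower at 1 µg for 24 h (median -0.84, against 0.01 for all genes), where 31% of all genes were lower. At 10 µg 2 were higher and 4 lower (median -0.47), where 34.9% of all genes were lower. Tfrc, the transferrin receptor, fell (-1.85 ± 0.07 with 1 µg and -1.94 ± 0.07 with 10 µg), opposite in direction to Vegfa. Vegfb, a relative of Vegfa, fell by 0.29 ± 0.08 with 1 µg and was 0.59 ± 0.08 higher with 10 µg than with 1 µg at 24 h. Angptl4 fell by 1.16 ± 0.15 with 10 µg. Epo rose by 0.58 ± 0.11 with 10 µg, but 12.2% of its exon bases are shared with Gnb2 on the same strand. Among 4 testable receptors, the VEGF co-receptor gene Nrp2 fell (-0.42 ± 0.06 and -0.34 ± 0.06 with 1 µg and 10 µg), Nrp1 rose by 0.33 ± 0.06 with 1 µg, and the adrenomedullin receptor gene Calcrl fell by 0.80 ± 0.07 with 10 µg. At 6 h with 10 µg Nrp2 rose by 0.28 ± 0.06 and Nrp1 fell by 0.31 ± 0.06. Vegfc rose by 0.90 ± 0.22 there, a call lost whenever any 1 library of the groups compared was left out.

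The list that shifted upwards with Ndrg1 and Ankrd37 was that of other HIF targets, of which 11 were higher and 2 lower of 16 with 1 µg for 24 h and 13 higher and 2 lower with 10 µg (medians 0.32 and 0.61, against 0.01 for all genes). Of all genes, 30.8% and 35.4% were higher. This list too was chosen with earlier results of these data known, so the shift is a description and no test. Stc2, a secreted glycoprotein, rose by 3.01 ± 0.15 and 3.29 ± 0.15, and Rora, a nuclear receptor, by 3.23 ± 0.31 and 4.06 ± 0.29. Rora averaged 0.41 CPM in untreated cells and 0.50 and 0.41 CPM at 6 h with 1 µg and 10 µg, near the filter minimum of 0.486 CPM. At 24 h it averaged 3.94 and 7.05 CPM, so it may have passed the filter only through the groups where it was high. Its values, and its place among the genes counted as higher, are therefore a description. Ddit4, the mTORC1 inhibitor REDD1, rose by 2.68 ± 0.20 with 1 µg, and Ero1a, an oxidase of the endoplasmic reticulum, by 0.85 ± 0.06 with 10 µg. Bhlhe40, a transcriptional repressor, was 1.08 ± 0.07 higher with 10 µg than with 1 µg at 24 h. At 6 h with 10 µg 5 of the 16 were higher (4.09% of all genes), among them Bhlhe40 at 0.42 ± 0.07 and Kdm3a, a histone demethylase, at 0.23 ± 0.05. The Kdm3a call was lost without replicate 2 of the treated group (edgeR adjusted p = 0.0614). Pfkfb3, also in the glycolytic list, is counted among the 5.

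Beside Bnip3, its relative Bnip3l rose by 0.80 ± 0.06 with 1 µg and 1.19 ± 0.06 with 10 µg at 24 h, and Lonp1, a mitochondrial protease, by 0.80 ± 0.09 and 1.46 ± 0.09. These 2 were the only genes called higher among 6 mitochondrial targets at either dose, where 30.8% and 35.4% of all genes were higher. The count was thus near that of all genes, and the list medians were 0.04 with 1 µg and -0.10 with 10 µg. With 10 µg Higd1a was lower, at -0.32 ± 0.11. That call was lost without untreated replicate 1 or replicate 1 or 3 of the treated group (edgeR adjusted p up to 0.0719). Beside P4ha1, the other testable alpha subunit P4ha2 rose by 1.28 ± 0.28 with 10 µg, and by 0.72 ± 0.29 with 1 µg in a call lost without the filter on low counts, in DESeq2, and without untreated replicate 1, untreated replicate 2 or replicate 3 of the treated group (adjusted p 0.0556 to 0.129), and the beta subunit P4hb fell (-0.29 ± 0.05 and -0.41 ± 0.05). Loxl3, a lysyl oxidase, rose by 0.61 ± 0.08 and 0.76 ± 0.08, with 11.6% of its exon bases overlapping Htra2 on the other strand. In the HIF machinery 3 were higher and 6 lower of 14 with 1 µg and 4 higher and 8 lower with 10 µg, where 61.8% and 70.3% of all genes were called in either direction. Arnt rose by 0.47 ± 0.05 with 10 µg, the ubiquitin ligase genes Siah1a and Siah2 rose by 0.60 ± 0.08 and 0.49 ± 0.08 with 1 µg and by 0.68 ± 0.08 and 0.51 ± 0.08 with 10 µg, and Cul2 and Rbx1, parts of the von Hippel-Lindau ligase, fell (-0.37 ± 0.07 and -0.35 ± 0.07 with 1 µg).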

How the data were processed

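RNA from 15 RAW264.7 libraries was extracted with TRIzol and RNeasy and made into TruSeq stranded mRNA libraries, per the labels' protocols. The authors deposited whole-number read counts per gene symbol for all libraries in 1 table, and the build is GRCm39 per the submitters' processing notes. The aligner, annotation and strand setting were not given in the sources used here.

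Testing was done with edgeR 4.0.16 (R 4.3.3). Genes were kept by filterByExpr (12401 genes, 99.97% of counts), libraries scaled by TMM, and all 15 fitted together with robust glmQLFit (10 residual degrees of freedom). The 9 contrasts were tested two-sided with Benjamini-Hochberg adjustment over all genes tested, with a threshold of 0.05 on the adjusted p. Each SE was the log2 fold change over the square root of F. Fold changes used a prior count of 0.125, and CPM the TMM-adjusted library sizes; correlations used log2 CPM with a prior count of 2. Exon lengths and overlaps came from GENCODE M21 (GRCm38) and promoter windows from RefSeq (GRCm38.p6). The edgeR steps were tested on simulated counts.

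The 9 genes, the pathway and marker lists and the tests were chosen with earlier results of these data known. Other pathway genes were named by a rule: in each list and comparison, up to 4 genes called with the smallest p. Alternatives were RLE factors, no filter, DESeq2 1.42.0, limma-voom (limma 3.58.1), a non-robust fit, a replicate block, only the groups compared, and each library left out. Aldoa was not analysed here, and some genes that the rules name are not reported here.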

Additional observations from a re-analysis of the deposited data

Results flagged for a closer look

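The rise of Ndrg1 from 6 h to 24 h differed between the doses, by 0.84 ± 0.24 on the log2 scale in the edgeR test of the difference itself (adjusted p = 0.0319). It rose by 2.49 ± 0.17 with 1 µg and by 3.32 ± 0.17 with 10 µg, in 3 of 3 libraries against every 6 h library at each dose. Between the same groups, 65.5% of all genes at 1 µg and 72.1% at 10 µg had no overlap in either direction. The call was lost in 9 of 19 alternatives, and without replicate 1 of the group given 1 µg for 24 h, the library that stood apart, the difference was 0.67 (adjusted p = 0.0132).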

How the results depend on the processing

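Of 34 calls among the 9 genes, 25 were kept under every alternative run and 9 were lost under at least 1 (24 and 7 of 31 without Adm). Of 1100 recomputed values, 1017 kept their direction and side of the threshold, 46 lost a call, 8 gained one and 29 changed sign, the last only in fits that left out 1 library and only for differences that were not called. The ranges over the left-out libraries were, against untreated cells at 1 µg for 6 h, -0.19 to 0.051 for Egln3, -0.48 to 0.52 for Adm and -0.033 to 0.26 for Bnip3. At 10 µg for 6 h they were -0.080 to 0.21 for Egln3, -1.60 to 0.027 for Adm and -0.050 to 0.19 for Ankrd37, and at 1 µg for 24 h -0.037 to 0.077 for Egln1. Between doses at 6 h they were -0.048 to 0.0061 for Egln1, -0.016 to 0.28 for Egln3, -1.40 to 0.094 for Adm and -0.18 to 0.0023 for Ndrg1, and at 24 h -0.38 to 0.078 for Ankrd37. For dose by time they were -0.16 to 0.14 for Egln3, -0.12 to 0.055 for Vegfa, -0.25 to 0.074 for Bnip3 and -0.27 to 0.19 for Ankrd37.

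The number of the 9 genes called was 1 to 3 at 10 µg for 6 h when 1 library was left out (3 with all), 0 to 1 between doses at 6 h and 0 to 2 for dose by time. With DESeq2, or with only the groups compared, 2 were called between doses at 6 h in place of 1, by adding Hif1a, and with only the groups compared 0 were called for dose by time in place of 1. The cause was not tested. Over all genes, 738 were called at 10 µg for 6 h against untreated cells, 390 to 469 with 1 library left out and 1487 with only the groups compared; between doses at 6 h the counts were 291, 111 to 163 and 1044.

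Replicate numbers do not pair the libraries by any label. The deviations of same-numbered libraries of different groups correlated at most weakly (-0.08 to 0.10 over 30 pairs, none over 0.1). Their median was 0.017, against -0.007 over 60 differently numbered pairs, of which 1 was over 0.1. The closest library of another group had the same number for 10 of 15 libraries, although fewer pairs across groups were same-numbered than not. Weak pairing was not tested. With the replicate number as a block, Adm at 24 h against 6 h with 1 µg was the only 1 of the 34 calls lost (log2 difference 1.51, adjusted p = 0.0541). It was lost in 10 of 12 alternatives, and 3 calls of Egln3 were lost in 3 to 5 of 13. Depth limits Adm, with 6 to 34 counts per group.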
